A study of Mus musculus with 6 samples.

Results

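Classical astrocyte markers are genes long used to recognise astrocytes in the mouse brain, and 10 of them are described here: Aldh1l1, S100b, Acsbg1, Gjb6, Mlc1, Hepacam, Ntsr2, Fabp7, Slc7a10 and Atp1b2. They were chosen by name, with earlier results of these data known. All 10 were found in the deposited table of 54532 genes, and all 10 passed the filter on low counts. The libraries were made from polyadenylated RNA of primary cortical astrocytes grown in culture from mouse pups. In the knockout group (3 libraries) Cre under the Gfap promoter, labelled GFAP-Cre::NEOf/f, deletes floxed Neo1, the gene of the netrin and RGM receptor neogenin. The control group (3 libraries) came from littermates whose genotype is labelled only as control, with library names beginning Neoff. Neither the age of the pups, the deleted exon nor the exact Gfap promoter is known from the labels, and a cell in which that promoter is silent would keep Neo1. The labels call the libraries biological replicates without naming a pup, litter or dish, so p-values measure the spread between these libraries, which may be partly technical.

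Astrocytes buffer ions, water and amino acids around neurons and are coupled to one another by gap junctions. Several of the 10 genes belong to that work: Mlc1 and Hepacam encode membrane proteins of the astrocyte endfoot and cell junction, Atp1b2 a subunit of the sodium pump, Gjb6 a connexin, and Slc7a10 an amino acid transporter. Others are enzymes or binding proteins (Aldh1l1, Acsbg1, Fabp7, S100b) and Ntsr2 is a neurotensin receptor. Most of them are known to increase as astrocytes mature in the brain, whereas Fabp7 is best known from radial glia and young astrocytes.

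Total counts ran from 74614772 to 97453331 in the knockout libraries and from 60819277 to 106081115 in the control libraries. Levels are given in CPM, counts scaled to a common library size, with TMM normalisation, which assumes that most genes are equal between libraries. Neo1 was at 100.8, 105.99 and 105 CPM in knockout libraries 1, 2 and 3 and at 189, 189 and 198 CPM in control libraries 1, 2 and 3, a log2 fold change of −0.89 (SE 0.05). Over 18530 genes, edgeR called 3627 higher and 3466 lower with the knockout, and scaling by total counts alone gave 2921 and 4499. Knockout library 2 lay away from knockout libraries 1 and 3 on principal component 1 (49.3% of variance), further from the controls, and on component 2 (19.6%). It had 22076 genes with a count, the fewest of the 6 libraries. Without this library too, 6 of the markers described below were called. The words rose and fell are kept for genes whose p-value, adjusted over all genes tested by the Benjamini-Hochberg method in edgeR's two-sided quasi-likelihood test, was under 0.05, and fold changes are of knockout over control.

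Of the 10 markers, 6 fell in the knockout cultures and 0 rose, against 18.7% of all genes tested that fell, 19.6% that rose and 38.3% called either way. At an unadjusted p under 0.05 the count of higher markers was likewise 0, and it was 0 by DESeq2. The markers that fell were Hepacam, Atp1b2, Aldh1l1, Acsbg1, Mlc1 and Fabp7. Hepacam fell by 46.1% and Fabp7 fell by 9.79%, the widest and narrowest of these changes. S100b, Gjb6, Ntsr2 and Slc7a10 did not pass the test. In 7 of the 10 the knockout and control libraries did not overlap, all with the knockout lower, against 24.5% of all genes tested with the knockout lower, 24.7% with it higher and 49.3% either way. The median log2 fold change of the 10 was −0.35, against −0.0018 for all genes tested. RNA of whole cultures was sequenced, so fewer cells of a type and less of an RNA per cell cannot be told apart.

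**Figure D1:**
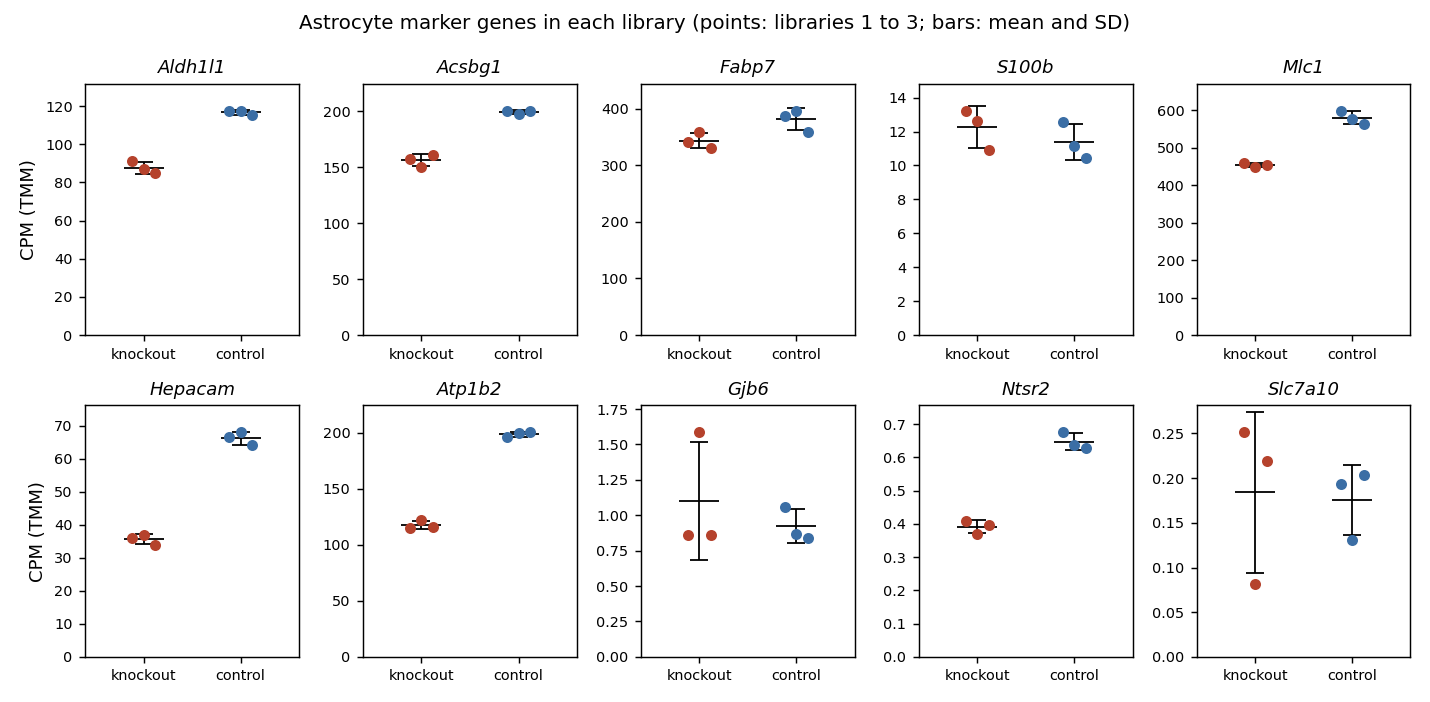
CPM of each marker gene (vertical axes, each from 0) in the 3 knockout and 3 control libraries, with mean and SD as bars. In 7 panels the knockout points all lie below the control points, and in S100b, Gjb6 and Slc7a10 they overlap.

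Among the junction and endfoot proteins, Hepacam (ENSMUSG00000046240, chr9:37367351-37386575, GRCm38) encodes GlialCAM, an adhesion molecule that carries MLC1 to cell junctions. Hepacam was at 36.2, 37.1 and 34.0 CPM in knockout libraries 1, 2 and 3 and at 66.6, 68.1 and 64.2 CPM in control libraries 1, 2 and 3. The highest knockout library was far below the lowest control library. On the log2 scale the fold change came to −0.89 (SE 0.06) with an adjusted p of 1.3e-09, a fall of about the size seen for Neo1 in the same libraries. Mlc1 (ENSMUSG00000035805, chr15:88955884-88979007), whose loss in humans gives megalencephalic leukoencephalopathy with cysts, was at 459, 449 and 454 CPM in the knockout libraries. The control libraries had 599.6, 576 and 565 CPM of Mlc1. Its groups did not overlap either, and the fall in Mlc1 was −0.35 as a log2 fold change (SE 0.04), with adjusted p = 1.7e-06.

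Partners of these proteins were read from a list of 10 genes, of which 6 fell and 1 rose. This list and the gene lists below are to be read beside 18.7% of all genes tested that fell and 19.6% that rose. Kcnj10, the inward-rectifying potassium channel Kir4.1, fell to 46.2 ± 2.81 CPM in knockout cultures, against 78.3 ± 3.66 CPM in control cultures (SD, n = 3 each), with a log2 fold change of −0.76. Dag1, the dystroglycan gene, fell to 581 ± 9.22 CPM in knockout cultures, against 737 ± 19.1 CPM in controls (−0.34). The water channel gene Aqp4 moved the other way, at 854, 914 and 868 CPM in the knockout libraries and 586, 584 and 646 CPM in the control libraries (0.54, adjusted p = 5.1e-08). Aqp4 was thus the single called member of this list that was higher in the knockout cultures.

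Atp1b2 (ENSMUSG00000041329, chr11:69599736-69605942) encodes the glial β2 subunit of the sodium pump, also known as an adhesion molecule on glia. It was at 115, 122 and 116 CPM in knockout libraries 1, 2 and 3 and at 196, 199 and 200.5 CPM in control libraries 1, 2 and 3. Knockout and control libraries were well separated, and log2 fold change was −0.75, with SE 0.05 and adjusted p = 4.1e-10. Of 9 other genes of the pump and its FXYD regulators, 5 fell and 2 rose (55.6% and 22.2%). Atp1b1, the β1 subunit, fell to 192 ± 4.14 CPM in knockout cultures, against 276 ± 3.75 CPM in controls (−0.52). Fxyd6, a small regulator of the pump, fell to 127 ± 3.57 CPM in knockout cultures, against 211 ± 7.57 CPM in controls (−0.73). The β3 subunit gene Atp1b3, named after its values were seen, rose by 0.23 (adjusted p = 0.0012).

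Gjb6 (ENSMUSG00000040055, chr14:57123303-57133611) encodes connexin 30, the gap junction protein of grey-matter astrocytes. It was scarcely detected, with 82, 116 and 63 counts in the knockout libraries and 66, 60 and 91 counts in the control libraries. In CPM these were 0.859, 1.59 and 0.862 in the knockout libraries and 1.06, 0.870 and 0.840 in the controls, so knockout library 2 was high and the other libraries overlapped. The log2 fold change was 0.25 with a 95% interval of −0.46 to 0.97, and it was −0.098 without knockout replicate 2. Among 7 other tested connexin and pannexin genes, 3 rose and 1 fell (42.9% and 14.3%). The one that fell was Gja1, connexin 43, at 362 ± 19.3 CPM in knockout cultures and 420.3 ± 9.57 CPM in controls (−0.21, adjusted p = 0.0011). Gjb2, connexin 26, rose to 36.97 ± 1.44 CPM in knockout cultures, against 31.0 ± 1.59 CPM in controls (0.25), and Gja4, a connexin known from endothelium, to 5.95 ± 0.936 CPM, against 1.67 ± 0.308 CPM in controls (1.84). Panx1, which encodes a channel protein of the pannexin family, rose by 0.36.

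Aldh1l1 (ENSMUSG00000030088, chr6:90486427-90600203) encodes a folate enzyme, 10-formyltetrahydrofolate dehydrogenase, and is widely used as a pan-astrocyte marker. It was at 91.3, 86.8 and 85.1 CPM in knockout libraries 1, 2 and 3 and at 118, 118 and 115 CPM in control libraries 1, 2 and 3. All knockout libraries were lower, giving −0.41 as the log2 fold change, with SE 0.05 and adjusted p = 2.3e-06. Its mitochondrial paralogue Aldh1l2 rose, to 32.7 ± 0.382 CPM in knockout cultures, against 18.1 ± 0.759 CPM in controls (0.85, adjusted p = 2.2e-08). Of 12 folate one-carbon enzymes, Aldh1l2 included, 3 rose and 1 fell. These shares (25.0% and 8.33%) were not far from those over all genes tested (19.6% and 18.7%). Mthfd2l, a mitochondrial folate enzyme, rose by 0.39. Mthfd1, the cytosolic trifunctional folate enzyme, had a log2 fold change of −0.17 (adjusted p = 0.015), and it lost its call without control replicate 1 and without knockout replicate 3, when the count of lower genes in this list was 0. That count was 3 without knockout replicate 2 and under total-count scaling, and 2 with no filter on low counts.

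Acsbg1 (ENSMUSG00000032281, chr9:54604877-54661870) encodes the bubblegum acyl-CoA synthetase, which activates long and very long chain fatty acids. It was at 158, 150.1 and 160.5 CPM in knockout libraries 1, 2 and 3 and at 201, 197 and 201 CPM in control libraries 1, 2 and 3. The groups were apart, at −0.35 on the log2 fold change scale, with SE 0.04 and adjusted p = 5.4e-06. Among 9 other tested genes of fatty acid activation, 4 fell and 1 rose (44.4% and 11.1%). Acsl4, which prefers arachidonic acid, rose to 118 ± 5.37 CPM in knockout cultures, against 68.5 ± 3.80 CPM in controls (0.79). Acss1 and Acss2, the acetyl-CoA synthetases of mitochondria and cytosol, fell by 1.03 and by 0.42 on the log2 scale, and Slc27a4, a fatty acid transport protein, fell by 0.33. Acsbg1 lies 4.21 Mb from Neo1 on chromosome 9 and Hepacam 21.49 Mb from it. The other 8 markers are on other chromosomes.

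Fabp7 (ENSMUSG00000019874, chr10:57784881-57788450), the brain lipid-binding protein, had the smallest fall. It was at 342, 358 and 331 CPM in knockout libraries 1, 2 and 3 and at 387, 397 and 359 CPM in control libraries 1, 2 and 3. The highest knockout value and the lowest control value nearly met. As a log2 fold change this was −0.15, with SE 0.05 and adjusted p = 0.018, and leaving out any one of control replicate 1 (adjusted p = 0.076), control replicate 2 (0.096), knockout replicate 1 (0.055) or knockout replicate 3 (0.097) ended the call. Of 6 other lipid and retinoid binding proteins, 3 fell and 1 rose, against 18.7% and 19.6% of all genes tested. Fabp5, the epidermal fatty acid binding protein, fell to 68.1 ± 3.94 CPM in knockout cultures, against 91.3 ± 3.91 CPM in controls (−0.42), and Fabp3, the heart form, fell by 0.43. Crabp1, a retinoic acid binding protein, fell by 0.68 on the log2 scale.

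S100b (ENSMUSG00000033208, chr10:76253853-76261159) encodes a calcium-binding protein that mature astrocytes also secrete. It was at 13.2, 12.6 and 10.9 CPM in knockout libraries 1, 2 and 3 and at 12.6, 11.2 and 10.4 CPM in control libraries 1, 2 and 3, and the groups overlapped. The log2 fold change was 0.11 (adjusted p = 0.47), with a 95% interval of −0.12 to 0.34, which holds no fall of the size seen for Hepacam or Atp1b2. Of 9 other tested S100 genes, 4 fell (44.4%) and 0 rose (0 also at an unadjusted p under 0.05 and by DESeq2). S100a16 fell to 105 ± 5.61 CPM in knockout cultures, against 154 ± 7.51 CPM in controls (−0.55), and S100a11, S100a13 and S100a1 fell by 0.29, by 0.33 and by 0.24 on the log2 scale. S100a10, a partner of annexin A2, was at 289 ± 10.9 CPM in knockout cultures and 296 ± 16.2 CPM in controls (adjusted p = 0.63).

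Ntsr2 (ENSMUSG00000020591, chr12:16653382-16660227), a low-affinity neurotensin receptor typical of astrocytes, had 39, 27 and 29 counts in the knockout libraries and 42, 44 and 68 counts in the control libraries. Scaled, these were 0.408, 0.369 and 0.397 CPM in the knockout libraries and 0.675, 0.638 and 0.628 CPM in the controls, with no overlap. The log2 fold change of −0.72 did not pass the test (SE 0.44, adjusted p = 0.22), and its 95% interval ran from −1.64 to 0.20. In the neurotensin system 2 of 4 other genes rose and 2 fell, against 19.6% and 18.7% of all genes tested. The peptide gene Nts rose to 2.99 ± 0.868 CPM in knockout cultures, against 0.456 ± 0.187 CPM in controls (2.67), and the receptor gene Ntsr1 to 0.564 ± 0.0631 CPM, against 0.161 ± 0.0908 CPM in controls (1.78, adjusted p = 0.027). The sorting receptor genes Sorl1 and Sort1, whose proteins bind neurotensin among other ligands, fell by 0.78 and by 0.41 on the log2 scale. The count of higher genes was 1 in place of 2 when any library other than control replicate 3 was left out.

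Slc7a10 (ENSMUSG00000030495, chr7:35186385-35201114), the transporter Asc-1 for glycine, serine and other small neutral amino acids, was near the limit of detection. It had 24, 6 and 16 counts in the knockout libraries and 12, 9 and 22 counts in the control libraries, in overlapping ranges. The 95% interval of its log2 fold change ran from −1.42 to 1.56 around 0.071, so no difference of moderate size was detectable at this depth. Its exons also share 377 bases with Lrp3 on the opposite strand, a gene with at least 1226 counts in every library, and whether strand was used in counting is not given here, so some of these reads may belong to Lrp3. Of 12 other genes of serine synthesis and neutral amino acid transport, 4 fell and 2 rose (33.3% and 16.7%). Under total-count scaling 7 fell. Slc38a3, the glutamine transporter SNAT3, fell to 19.0 ± 1.46 CPM in knockout cultures, against 72.95 ± 4.13 CPM in controls (−1.94, adjusted p = 3.7e-13). Slc7a11, the cystine-glutamate exchanger xCT, rose to 604 ± 24.1 CPM in knockout cultures, against 247 ± 20.5 CPM in controls (1.29). Slc7a5, the large neutral amino acid transporter LAT1, fell by 0.46 on the log2 scale, and Slc1a5, the transporter ASCT2, rose by 0.63. Slc3a2, the heavy chain that Slc7a10, Slc7a5 and Slc7a11 proteins pair with, was at 369 ± 8.93 CPM in knockout cultures and 376 ± 13.6 CPM in controls (adjusted p = 0.66).

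Levels of the 10 genes can be set against each other only per length, so CPM was divided by the kilobases of annotated exon of each gene. The order was the same in both groups: Fabp7, Mlc1, Acsbg1, Atp1b2, Aldh1l1, Hepacam, S100b, Gjb6, Ntsr2 and Slc7a10. Fabp7 was at 275 ± 10.8 CPM per kilobase in knockout cultures and 305 ± 15.6 in controls, above 99.2% and 99.4% of the tested protein-coding genes. Mlc1 followed with 162 ± 1.75 CPM per kilobase in knockout cultures and 207 ± 6.33 in controls. Gjb6 had 0.412 ± 0.157 CPM per kilobase in knockout cultures and 0.346 ± 0.0448 in controls, and Slc7a10 had 0.0872 ± 0.0426 in knockout cultures and 0.0832 ± 0.0186 in controls. Neighbours in this order did not overlap within a group, except Ntsr2 and Slc7a10 in the knockout cultures. The 10 markers were thus present at very unequal levels in these cultures, and levels in mature astrocytes were not compared. Gjb6 stood above 16.6% of the tested protein-coding genes in knockout cultures and 15.1% in controls, and Ntsr2 and Slc7a10 above fewer. Fabp7, known from younger glia, was the highest. In the same order of groups, however, Mlc1 stood above 98.3% and 98.8% of them, and Acsbg1 above 92.8% and 94.5%.

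**Figure D2:**
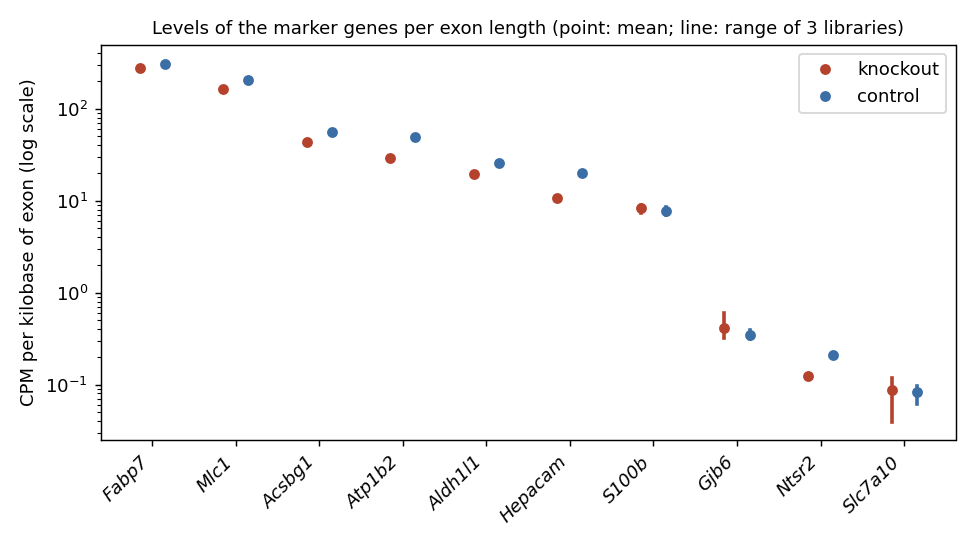
Mean level (points) and range over 3 libraries (lines) of each marker gene in CPM per kilobase of exon, on a log axis, for knockout and control cultures. Fabp7 and Mlc1 are highest, and Gjb6, Ntsr2 and Slc7a10 lie far below the other 7 genes.

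The coefficient of variation of CPM among the 6 genes that fell was between 1.08% and 4.40% in knockout cultures and between 0.917% and 5.13% in control cultures. It was 9.95% in knockout cultures and 9.53% in controls for S100b, 38.0% and 12.97% for Gjb6, 48.8% and 22.4% for Slc7a10 and 5.16% and 3.86% for Ntsr2, in the same order of groups. The CPM of Ntsr2 thus spread less between these libraries than that of S100b. With only 27 to 68 counts per library, however, random sampling of reads alone would spread Ntsr2 more than this. Its small spread is therefore not read as a property of the gene. The fold change of Ntsr2 was less precise (SE 0.44, against 0.11 for S100b).

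**Figure D3:**
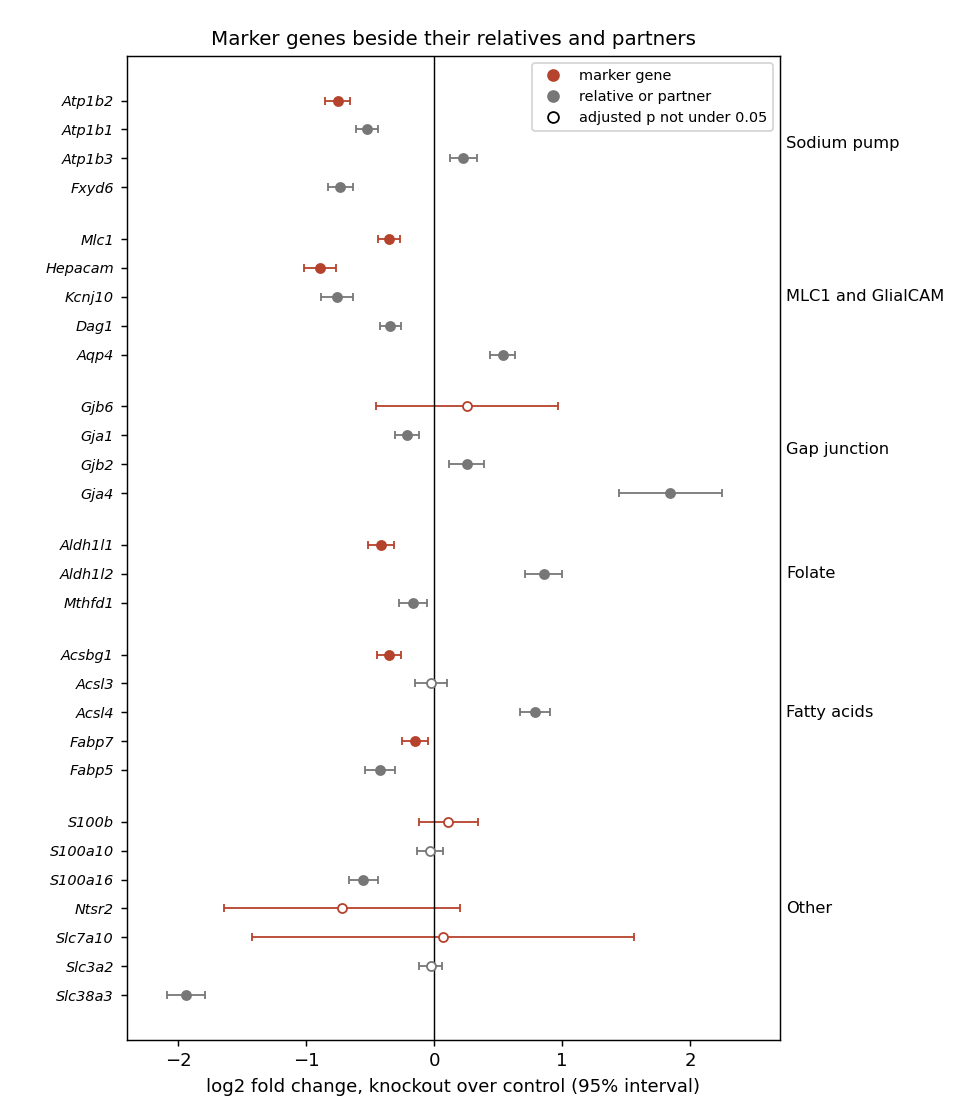
Log2 fold change of knockout over control (horizontal axis) with 95% intervals for the marker genes and selected relatives and partners; open circles did not pass the test. Hepacam at −0.89 and Atp1b2 at −0.75 lie furthest left among the markers that passed it, while Aqp4, Aldh1l2 and Acsl4 lie on the positive side.

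The ratio of a marker to a relative or partner within one library does not depend on the scaling between libraries, and 8 such ratios were compared between groups with a two-sided exact permutation test. With 3 libraries against 3 its smallest possible p is 0.10, which gave 0.16 after Benjamini-Hochberg adjustment over the 8, so no ratio could pass. Hepacam over Mlc1, per kilobase, was 0.0659, 0.0690 and 0.0627 in the knockout libraries and 0.0930, 0.0989 and 0.0952 in the controls (exact p = 0.10), so the GlialCAM gene was lower relative to Mlc1 in every knockout library. Aldh1l1 over Aldh1l2 was 4.58, 4.45 and 4.35 in the knockout libraries and 10.7, 11.3 and 10.2 in the controls, a fold of 0.414 (exact p = 0.10). These 2 ratios had the largest differences among the 5 whose groups did not overlap, of which 4 are given. Acsbg1 over Acsl3, a synthetase of lipid droplets, was also lower in every knockout library (fold 0.795, exact p = 0.10). Fabp7 over Fabp5 was higher there, at 14.5, 14.1 and 14.6 in the knockout libraries and 11.8, 12.1 and 11.8 in the controls (exact p = 0.10). The ratios of Gjb6 to Gja1, Slc7a10 to Slc3a2 and S100b to S100a10 overlapped between groups (exact p of 0.30, 1.0 and 0.20).

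**Figure D4:**
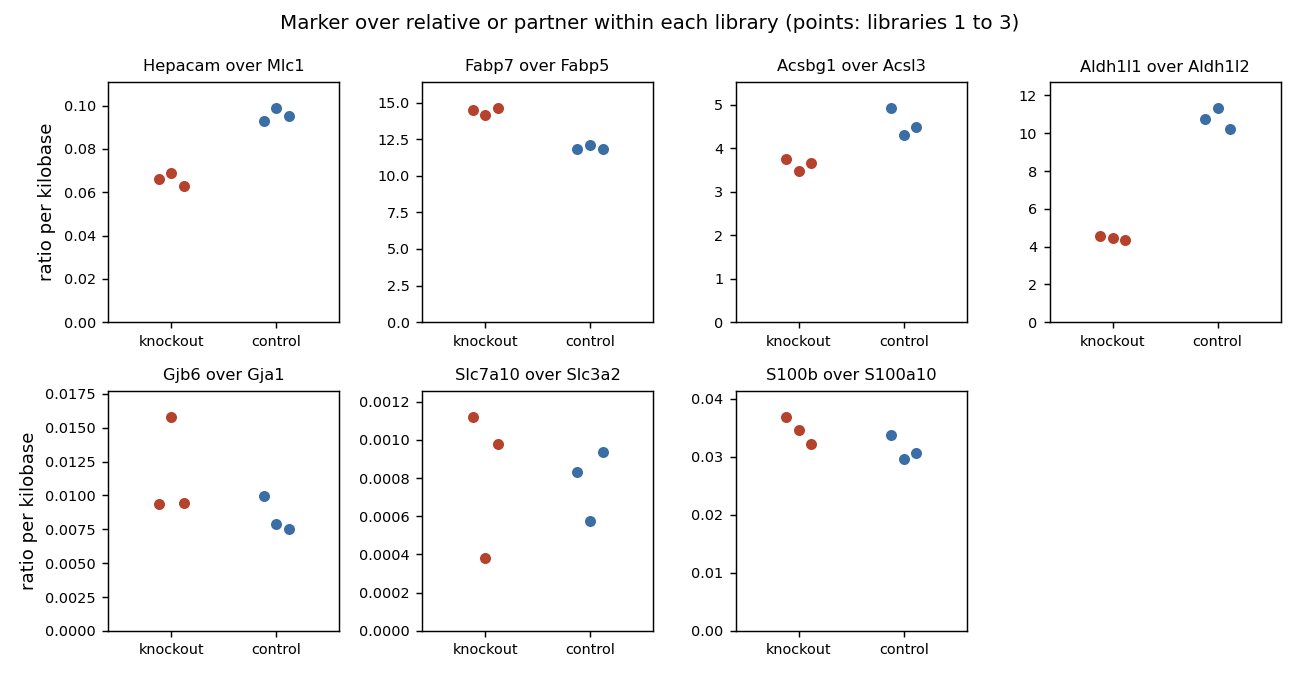
Ratio per kilobase of exon of 7 marker genes to a relative or partner in the 3 knockout and 3 control libraries, each axis from 0. The groups are apart for Hepacam over Mlc1, Fabp7 over Fabp5, Acsbg1 over Acsl3 and Aldh1l1 over Aldh1l2, and overlap in the other 3 panels.

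Promoter sequences from RefSeq (build GRCm38.p6, 250 bases before to 50 after the start) were matched by symbol for 9 of the 10 markers, and those of Hepacam, Mlc1 and Fabp7 are printed because these genes span the largest to the smallest fall. The start is that of RefSeq, whereas the gene positions above come from GENCODE M21. By those positions the windows of Hepacam, Mlc1 and Aldh1l1 lie inside the gene. Capitals mark TTGGCA, a half-site of nuclear factor I, and TGGGAA, the core bound by the Notch effector RBPJ, each on either strand. All read 5′ to 3′ on the gene's strand.
Hepacam, chr9:37367356-37367655, plus strand: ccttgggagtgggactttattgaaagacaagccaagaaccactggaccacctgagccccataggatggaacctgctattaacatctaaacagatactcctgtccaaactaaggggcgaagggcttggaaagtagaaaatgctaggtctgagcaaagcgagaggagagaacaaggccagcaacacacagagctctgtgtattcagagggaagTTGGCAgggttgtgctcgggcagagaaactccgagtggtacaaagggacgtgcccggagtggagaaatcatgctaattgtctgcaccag
Mlc1, chr15:88978504-88978803, minus strand: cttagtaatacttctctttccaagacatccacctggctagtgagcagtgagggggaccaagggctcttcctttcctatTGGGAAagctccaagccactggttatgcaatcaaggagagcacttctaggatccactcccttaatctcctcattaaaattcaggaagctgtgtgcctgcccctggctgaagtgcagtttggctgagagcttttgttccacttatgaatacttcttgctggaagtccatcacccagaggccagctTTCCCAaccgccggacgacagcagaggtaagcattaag
Fabp7, chr10:57784673-57784972, plus strand: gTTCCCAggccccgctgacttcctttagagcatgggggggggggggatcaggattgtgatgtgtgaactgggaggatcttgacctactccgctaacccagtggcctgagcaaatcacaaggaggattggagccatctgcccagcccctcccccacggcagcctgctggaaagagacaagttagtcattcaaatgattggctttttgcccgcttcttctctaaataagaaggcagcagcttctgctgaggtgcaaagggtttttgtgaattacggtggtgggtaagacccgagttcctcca
TGGGAA occurred in 6 of the 9 marker windows (Aldh1l1, Acsbg1, Fabp7, S100b, Ntsr2 and Mlc1), and in 25.6% of all 32851 RefSeq windows of this length. TTGGCA was found in those of Hepacam and S100b, and in 14.1% of all windows. The full nuclear factor I palindrome (its half-sites on both sides of a spacer, overlapping the half-site search) and the SOX core ACAATG were searched on both strands too and occurred in 0 of the 9, against 0.0365% and 12.6% of all windows. These are matches of letters only. The windows held from 2 CpG dinucleotides in Acsbg1 to 9 in Aldh1l1, with 24 in Slc7a10, and the median of all windows was 7.

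Beyond the 10, a list of 40 other astrocyte genes held 26 that fell and 5 that rose (65.0% and 12.5%, against 18.7% and 19.6% of all genes tested), with a median log2 fold change of −0.39. This list was chosen with earlier results of these data known, so it is no independent check on the markers. Without knockout replicate 2 the counts were 26 and 6. Gfap, the astrocyte filament gene whose promoter drives the Cre, fell to 431 ± 3.85 CPM in knockout cultures, against 946 ± 20.8 CPM in controls (−1.13). Slco1c1, a thyroxine transporter, fell by 1.72 and Fgfr3, a growth factor receptor of the lineage, by 1.37 on the log2 scale. Slc1a2, the glutamate transporter GLT-1 and itself a gene of mature astrocytes, rose to 371 ± 16.6 CPM in knockout cultures, against 133 ± 8.41 CPM in controls (1.48). The other 4 that rose, named after their values were seen, were Aqp4, Dio2, Chrdl1 and Nfib.

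Markers of other cell types were read in the same way, beside 19.6% of all genes tested that rose and 18.7% that fell. Their part in the falls above was not tested. Of 17 microglia and macrophage markers, 13 fell and 1 rose, and their summed level was 100 to 108 CPM in knockout libraries and 155 to 164 CPM in controls, with C1qb at 2.93 ± 0.678 CPM and 11.5 ± 0.619 CPM in the same order. Of 12 tested fibroblast and meningeal markers, 8 rose and 1 fell. Their summed level was 4833 to 5481 CPM in knockout libraries and 3179 to 3376 CPM in controls. The collagen genes Col1a1 and Col1a2 made up most of it. Their means were 2976 and 1507 CPM in knockout cultures and 1950 and 864 CPM in controls. Dcn, a matrix proteoglycan gene, was at 43.4 ± 0.468 CPM in knockout cultures and 14.7 ± 0.934 CPM in controls. The count of fibroblast and meningeal markers that fell was 0 without control replicate 1 or control replicate 2, and 2 without knockout replicate 1 and under total-count scaling. Oligodendrocyte lineage markers numbered 1 higher and 4 lower of 10 (sums of 279.6 to 324 CPM in knockout and 329 to 337 CPM in control libraries). Cspg4, the one that rose, was a large part of these sums, with means of 185 CPM in knockout cultures and 152 CPM in controls. Neuron markers numbered 2 higher and 3 lower of 13 (374 to 387 and 423 to 439.9 CPM). The neuron shares, 15.4% and 23.1%, were near those over all genes tested. Without knockout replicate 2 the oligodendrocyte lineage markers that rose numbered 2, and without knockout replicate 3 or control replicate 2 the neuron markers that rose numbered 1. Endothelial markers numbered 4 higher and 0 lower of 10 (160.4 to 165 and 99.1 to 104 CPM; the count lower was 0 at an unadjusted p under 0.05 and by DESeq2 too), and pericyte and smooth muscle markers 2 higher and 4 lower of 9 (2947 to 3000.2 and 4116 to 4328 CPM). Acta2, a smooth muscle gene, made up most of this last sum, with means of 2685 CPM in knockout cultures and 3850 CPM in controls. The contractile genes Acta2, Cnn1 and Myh11 fell (log2 fold changes of −0.52, −1.13 and −0.78), whereas the pericyte gene Pdgfrb rose (0.52). The pooled sum therefore does not describe pericyte markers alone. Ependymal markers numbered 1 higher and 2 lower of 6 (41.0 to 50.9 and 72.6 to 74.3 CPM) and choroid plexus markers 1 higher and 4 lower of 6 (12.6 to 14.3 and 35.1 to 35.4 CPM). The choroid plexus markers that fell numbered 2 without control replicate 3 and with a minimum of 1 CPM in 3 libraries. The defining markers Cldn5, Mog and Dpt did not pass the filter on low counts, and none of the listed marker genes was at 0 in all 6 libraries.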

How the data were processed

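The authors deposited raw gene counts, whole numbers with no normalisation, for 6 libraries, made with HISAT2 2.2.1 and featureCounts 2.0.6 on GRCm38 (mm10), per the submitters' processing notes. Annotation release, strand setting and handling of multiply matched reads are not stated there. Columns were matched to samples by library name. Genes were tested in edgeR 4.0.16 (R 4.3.3): filterByExpr (minimum count 10, minimum total 15), TMM, robust glmQLFit and glmQLFTest on genotype alone, over 18530 genes. The procedure was tested on simulated data. Intervals (95%) come from the same fit. Exon lengths and positions came from GENCODE M21 (54495 of 54532 identifiers). Near-identical copies were sought with BLAST 2.17.0 (at least 95% identity over 100 bases); the hits were Lrp3 for Slc7a10 and the antisense gene Gm15756, with 2 counts or fewer per library, for Aldh1l1. Libraries of one group differed beyond sampling noise (chi-square per gene 5.98 to 21.7). The 10 markers and 19 further lists were chosen with earlier results of these data known. Named were the markers, Neo1, genes of the ratios and up to 4 called genes with the smallest p per list, where this helps; the rest are said to be chosen later. Alternatives were RLE and total-count scaling, DESeq2 1.42.0, no filter, 1 CPM in 3 libraries, a replicate block and each library left out. Some genes counted in the lists, and 1 of the 8 ratios, are not reported here by name.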

Additional observations from a re-analysis of the deposited data

How the results depend on the processing

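With RLE normalisation, total-count scaling, DESeq2, no filter on low counts, a minimum of 1 CPM in 3 libraries or a replicate block, the count of markers that fell was 6 and the count that rose 0 each time; with one library left out at a time the markers that fell numbered 5 to 6. Hepacam, Atp1b2, Aldh1l1, Acsbg1 and Mlc1 were called under all 12 alternatives and Fabp7 under 8, with adjusted p from 0.0013 to 0.097. The filter of 1 CPM removed Gjb6, Ntsr2 and Slc7a10. Signs turned only for uncalled genes: Gjb6 ranged from −0.098 to 0.41 on the log2 scale with one library left out, and Slc7a10 from −0.23 to 0.41, and was −0.018 under the replicate block. Gjb6 turned only without knockout replicate 2, its highest library. The causes were not tested. Depth limits the precision for Slc7a10, with 6 to 24 counts per library. Same-numbered libraries did not deviate together (correlations of 0.015, 0.019 and −0.0082), so the numbers were not taken as pairs, and not every library correlated best with its own number. The replicate block gave 3501 genes higher and 3383 lower over all genes tested, and 2 folate enzymes lower in place of 1. With one library left out these counts ran from 2907 to 3517 and from 2753 to 3431.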

Other observations

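Radial glia and progenitor genes, the stage before mature astrocytes, were lower more often than higher in the knockout cultures: of 14 tested, 7 fell and 1 rose, with a median log2 fold change of −0.22, against 18.7% and 19.6% of all genes tested. Nes and Vim, intermediate filament genes of immature glia, were at 729.6 ± 1.496 CPM and 3932 ± 140.2 CPM in knockout cultures and at 1117 ± 24.2 CPM and 5641 ± 206 CPM in controls (SD, n = 3 each), log2 fold changes of −0.61 and −0.52. Cdh4, a cadherin of the developing brain, fell to 24.7 ± 0.632 CPM in knockout cultures, against 60.5 ± 4.37 CPM in controls (−1.29). Tnc, tenascin C of the glial matrix, was the one that rose, to 4717 ± 68.3 CPM in knockout cultures, against 3116 ± 136 CPM in controls (0.60); the count that rose was 2 with no filter and without knockout replicate 2.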
